A study of Saccharomyces cerevisiae with 8 samples.

Results

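The data described here are the differences in translational efficiency between budding yeast grown with and without added spermidine, gene by gene, across the whole deposited count table. Efficiency is taken as the ratio of ribosome footprints to RNA of the same gene, and its change is the footprint change minus the RNA change between 10 and 0 µM added spermidine. All 8 libraries of the series enter it, and all 5545 genes of the table are members, of which 5488 passed a filter on low counts and were tested. The groups were footprints at 10 µM, footprints at 0 µM, RNA at 10 µM and RNA at 0 µM, with 2 libraries each. Every library came from Saccharomyces cerevisiae of genotype MATa ura3-52 leu2 with SPE1 and SPE2 each replaced by LEU2, grown in SD medium at 30 °C to mid-exponential density, so the libraries at 0 µM carry the same deletions as those at 10 µM. The labels do not say that the replicates came from separate cultures, so each p-value reflects library-to-library spread alone, which may be technical.

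Spermidine is a polyamine that binds RNA and ribosomes and is the source of hypusine, the modified residue of eIF5A, an elongation factor that also aids termination and the joining of prolines. The double deletion removes ornithine decarboxylase and S-adenosylmethionine decarboxylase, so that the cells depend on polyamine from the medium. Translational efficiency can be set at the leader of an mRNA, as in GCN4, whose upstream reading frames let ribosomes through to the coding sequence when initiator tRNA complexes are scarce, and in HAC1, whose unspliced mRNA is held silent by pairing between its leader and its intron. It can also change through elongation, when slow ribosomes pile up on a message, and a footprint count alone does not tell more initiation from slower elongation.

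Gene counts summed to between 3324344 and 7089928 per footprint library and between 1786419 and 2884632 per RNA library, with the 0 µM libraries deeper in both assays. The deleted SPE1 had 4 to 15 reads per library and SPE2 had 3 to 62. The 6 a-cell genes looked up summed to between 1178 and 1533 CPM (counts scaled to a common library total, after composition scaling) in a library, and the 3 alpha-cell genes in the table to between 9.82 and 53.3 CPM, which goes with the labelled mating type. Replicates differed by more than counting noise in all 4 groups (5.61 to 10.3 for chi-square per degree of freedom). Positions within a gene are not part of the table, and its footprints are a single sum.

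Efficiency rose for 49 genes and fell for 49 of the 5488 tested, 98 in all or 1.79% of genes, 0.893% in each direction (edgeR quasi-likelihood interaction test, Benjamini-Hochberg adjusted p below 0.05). The same fit called 38.5% of genes in footprints (18.7% higher and 19.8% lower) and 21.9% in RNA (8.45% higher and 13.5% lower). The median efficiency change was 0.05 on the log2 scale, and the middle 90% of genes lay between -0.78 and 0.72. The smallest change that was called was 0.64 in size, and 65 of the 279 genes that changed by more than 1 were called. Of the tested genes 3039 had a positive difference and 2449 a negative one. An unadjusted p below 0.05 was found for 1015 of the 5488. For each gene list below, this share and the 0.893% called in each direction are the background for its counts. The median standard error of a gene's change was 0.22, in a fit with 2 libraries a group and 4 residual degrees of freedom. Across genes, the footprint and RNA changes had a Pearson r of 0.62 and a Spearman rho of 0.61 over 5488 genes, which share libraries and are not independent replicates. The footprint changes had an SD of 0.64 and the RNA changes one of 0.48.

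**Figure D1:**
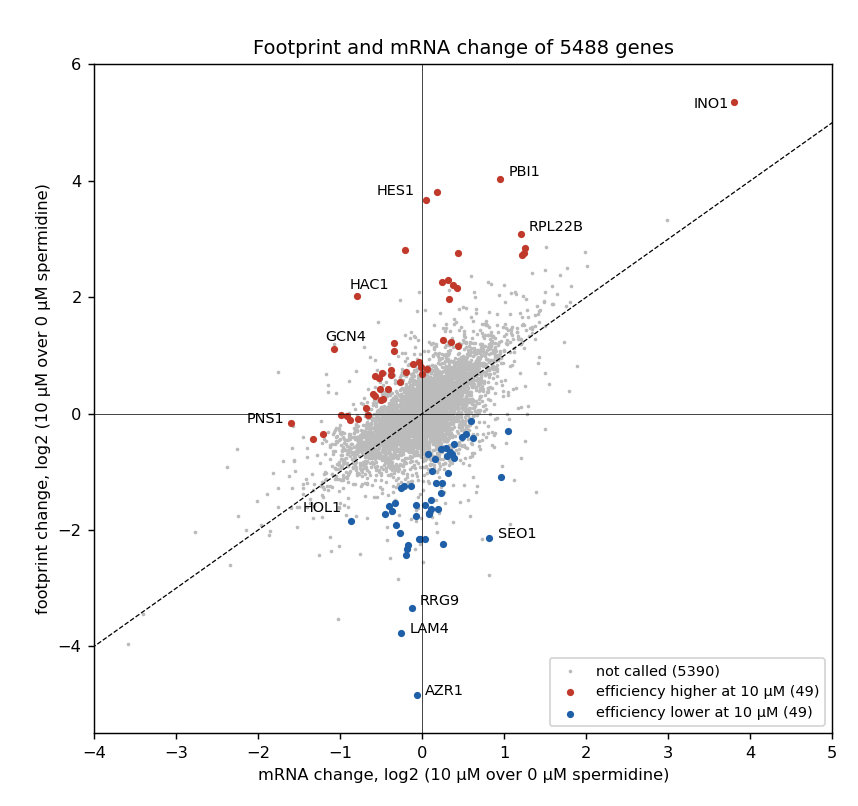
Footprint change against RNA change of the 5488 tested genes, both as log2 of 10 over 0 µM spermidine from the edgeR fit. Red points are the 49 genes whose efficiency was called higher at 10 µM, blue points the 49 called lower and grey points the rest; the dashed line marks equal changes. AZR1, LAM4 and RRG9 lie far below the line at RNA changes near 0, and HAC1 and GCN4 lie above it with lower RNA.

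The number of calls depended on single libraries. It fell to 20 without RNA library 2 at 10 µM, 49 without RNA library 1 at 10 µM, 34 and 39 without footprint libraries 1 and 2 at 10 µM, and 45 and 64 without footprint libraries 1 and 2 at 0 µM. It was 80 without RNA library 1 at 0 µM and 151 without RNA library 2 at 0 µM. Of the 98 genes, 19 kept their call in all 8 omissions, and the same 19 kept it in all 11 other settings that gave them an adjusted p. These are HAC1, GCN4, SRO77, YNR071C, RPL22B, HSU1 and NRG2 among the genes that rose, and AZR1, LAM4, RRG9, SEO1, KIP1, NCA3, SPO71, UBP13, VAC7, ZRG8, TBS1 and RCO1 among those that fell. None of the 98 changed sign in any of these 19 settings. With library totals in place of composition factors, 37 genes rose and 83 fell, and with DESeq2 54 rose and 83 fell, so the balance of rises and falls depended on the scaling and the tool.

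**Figure D2:**
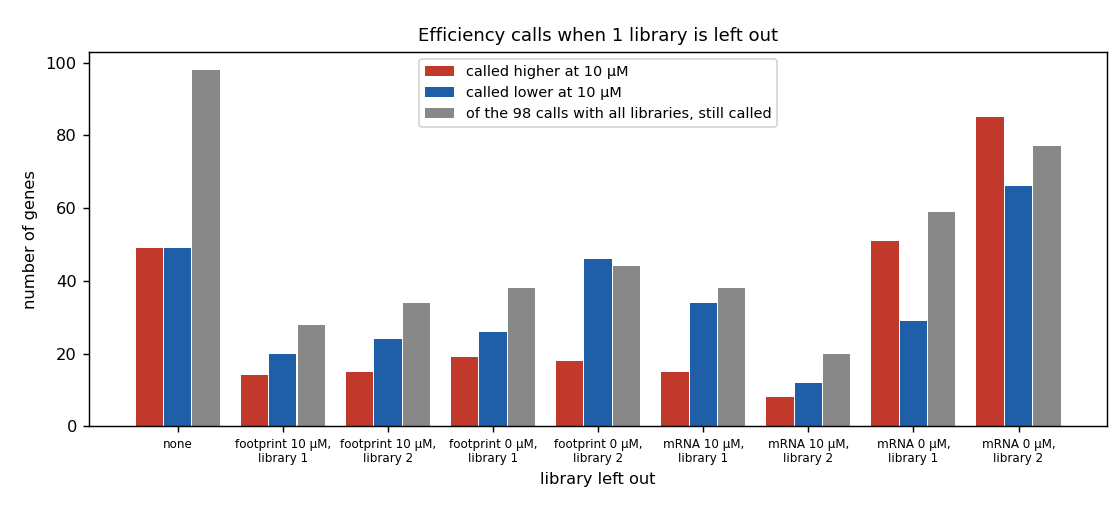
Number of genes called with each single library left out, compared with none left out. Red bars count genes called higher at 10 µM, blue bars those called lower, and grey bars the members of the original 98 that were still called; the grey bar is lowest, at 20, without RNA library 2 at 10 µM.

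The clearest rises were in a pair of transcription factors whose translation is known to be controlled on the mRNA. GCN4 (YEL009C; chromosome V, 138918 to 139763 in the R64 assembly) encodes the activator of amino acid synthesis genes. Its footprints stood at 126 and 137 CPM at 10 µM, against 61.0 and 61.5 CPM at 0 µM, and its RNA at 509.7 and 497 CPM at 10 µM, against 1078 and 1054 CPM at 0 µM. Footprints were thus higher at 10 µM and RNA lower, with no overlap between the conditions in either assay. Here and below, named genes were chosen by these same values or with them known. Such separation of libraries is therefore a description and adds no support to a call. The efficiency ratio of GCN4 was 0.261 at 10 µM, against 0.0575 at 0 µM, a 4.54-fold rise, or 2.18 (SE 0.14, edgeR adjusted p = 7.5e-05) in log2 units. The share of tested genes with a lower ratio than GCN4 was 10.1% at 10 µM, against 1.45% at 0 µM.

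HAC1 (YFL031W; chromosome VI, 75179 to 76147) encodes the transcription factor of the unfolded protein response, made after its intron is removed by Ire1. HAC1 footprints were 170.4 and 151 CPM at 10 µM, against 32.8 and 45.4 CPM at 0 µM. HAC1 RNA was 502 and 435 CPM at 10 µM, against 898 and 726 CPM at 0 µM, so again footprints were higher and RNA lower at 10 µM without overlap. The efficiency ratio was 0.343 at 10 µM, against 0.0482 at 0 µM, a 7.06-fold rise that equals 2.82 (SE 0.24, edgeR adjusted p = 0.00060) in log2 units. The share of tested genes with a lower ratio than HAC1 was 13.3% at 10 µM, against 1.16% at 0 µM. The efficiency of IRE1, which encodes the kinase and nuclease that splices HAC1, differed by -0.51 and was not called (edgeR adjusted p = 0.15). Whether the HAC1 reads come from spliced or unspliced mRNA cannot be read from gene counts.

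Of the 25 genes listed for described upstream reading frames, GCN4 alone was called in efficiency (4% higher, against 0.893% of all genes). The other members ran from -2.49 in ARV1, with an SE of 1.1, to 0.72 in SCO1. SCO1, a copper protein of cytochrome oxidase assembly, differed by 0.72 (edgeR adjusted p = 0.12), and MKK1, a kinase of the cell wall integrity pathway, by -0.74 (edgeR adjusted p = 0.12). The median of the list was 0.07, near the 0.05 of all genes, and turned negative with library totals (-0.02). Among the 10 genes of eIF2 control, the circuit that sets GCN4 translation, GCN4 was again the one called (10%, against 0.893% of all genes). The shares called in both lists rest on this 1 gene, and no other member was called. Both lists were chosen with earlier results of these data known. The median of the eIF2 control list was 0.09. GCD1 and GCD2, subunits of the guanine nucleotide exchange factor of eIF2, differed by -0.60 and 0.51 (edgeR adjusted p = 0.076 and 0.19), and GCN2, the kinase that phosphorylates eIF2, by 0.32 (edgeR adjusted p = 0.41).

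**Figure D3:**
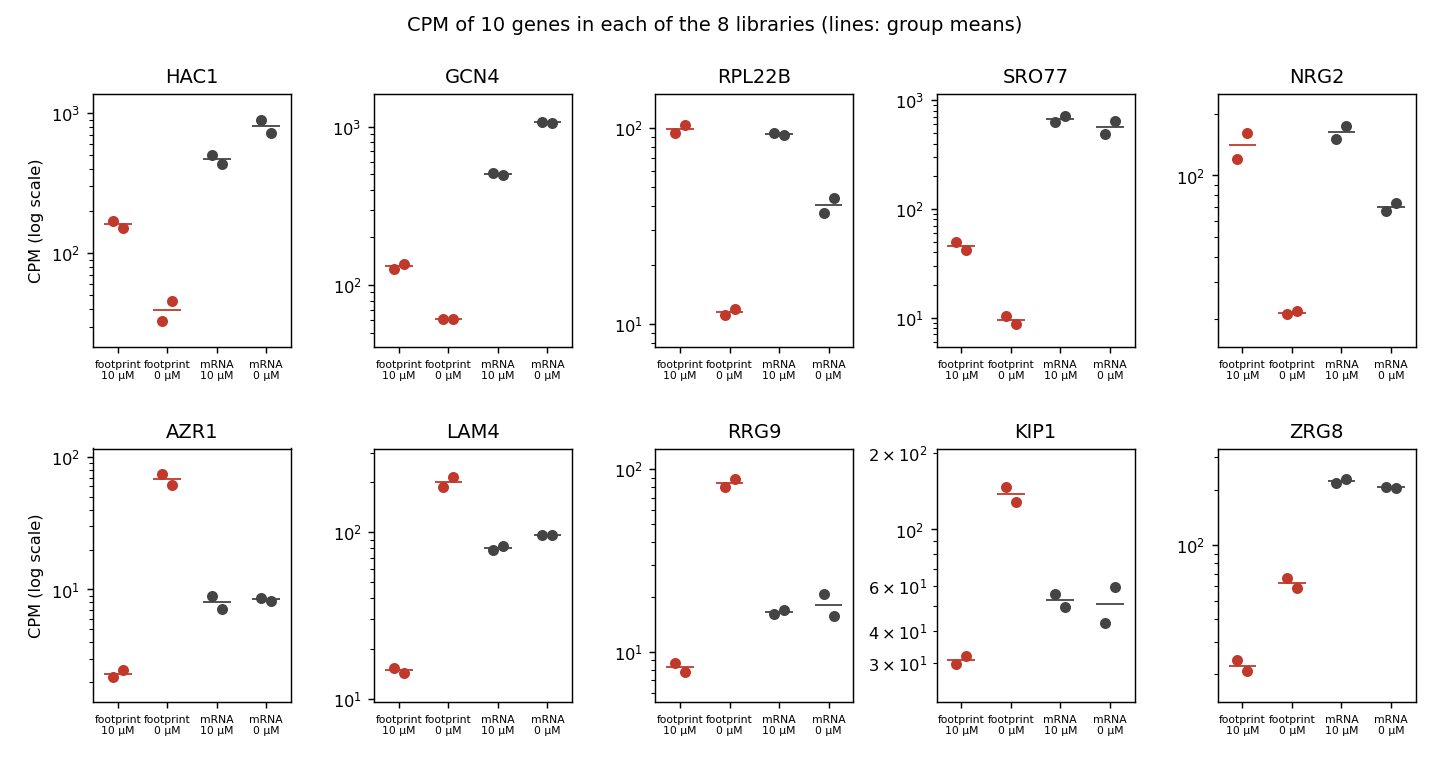
CPM of 10 genes in each of the 8 libraries on log axes, with footprints in red, RNA in grey, 10 µM left of 0 µM and group means as lines. In the upper row (HAC1, GCN4, RPL22B, SRO77 and NRG2) both footprint libraries at 10 µM lie above both at 0 µM, and in the lower row (AZR1, LAM4, RRG9, KIP1 and ZRG8) both lie below, while the RNA change is smaller in size than the footprint change in these 10 genes, in GCN4 by a narrow margin.

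Among the other rises, RPL22B, SRO77, YNR071C, HSU1 and NRG2 held in every omission. RPL22B, the minor gene for ribosomal protein L22 (YFL034C-A; chromosome VI, 64243 to 64932), had footprints of 94.3 and 103 CPM at 10 µM, against 11.1 and 12 CPM at 0 µM, and RNA of 94.5 and 91.8 CPM at 10 µM, against 36.8 and 44.1 CPM at 0 µM. Both assays were higher at 10 µM, footprints more so, and the efficiency change was 1.89 (SE 0.19, edgeR adjusted p = 0.0017). Its ratio was 1.06 at 10 µM, against 0.285 at 0 µM, and the share of genes with a lower ratio was 51.2% at 10 µM, against 10.2% at 0 µM. RPL22B has an intron, and its paralogue RPL22A shares sequence with it, so how reads were divided is uncertain.

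SRO77, which encodes a homologue of Sro7 in exocytosis, carried few ribosomes for its RNA in both conditions. Its footprints were 49.2 and 41.6 CPM at 10 µM, against 10.3 and 8.68 CPM at 0 µM, and its RNA 625 and 710.5 CPM at 10 µM, against 485 and 642 CPM at 0 µM. Footprints were higher at 10 µM in both libraries, whereas the RNA ranges overlapped, and efficiency changed by 2.02 (SE 0.25, edgeR adjusted p = 0.0052). For YNR071C, of uncharacterised product, footprints were 584 and 835 CPM at 10 µM, against 156 and 134 CPM at 0 µM. Its RNA was 946 and 1084 CPM at 10 µM, against 696 and 933 CPM at 0 µM, a smaller difference than in footprints and in the same direction, and the efficiency change was 1.97 (SE 0.27, edgeR adjusted p = 0.0082). HSU1, related to cystathionine gamma-synthase, changed by 1.64 (SE 0.24, edgeR adjusted p = 0.013), with footprints of 82.1 and 63.9 CPM at 10 µM, against 19.1 and 17.9 CPM at 0 µM. NRG2, a transcriptional repressor of glucose-repressed genes, changed by 1.51 (SE 0.22, edgeR adjusted p = 0.013), with footprints of 120.3 and 161 CPM at 10 µM, against 20.9 and 21.8 CPM at 0 µM, and RNA of 151 and 174 CPM at 10 µM, against 67.3 and 73.1 CPM at 0 µM. Like RPL22B, NRG2 was higher in both assays and more so in footprints. NRG2 lies outside the rule for named genes and was added after its values were seen.

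The largest fitted rises rested on few footprint reads at 0 µM. HES1, of the oxysterol-binding protein family, had 38 and 26 footprint reads at 10 µM, compared with 5 and 3 at 0 µM, and its efficiency change of 3.63 (SE 0.70, edgeR adjusted p = 0.039) was lost without footprint library 1 at 10 µM, either footprint library at 0 µM or either RNA library at 10 µM (log2 3.08 to 4.23 over the 8 omissions) and with limma voom. RRT5 had 17 and 55 footprint reads at 10 µM, against 3 and 5 at 0 µM, a change of 3.62 (SE 0.69, edgeR adjusted p = 0.039) that was lost without footprint library 2 at 10 µM, either footprint library at 0 µM or either RNA library at 10 µM (log2 2.75 to 4.08 over the 8 omissions), with limma voom and under a count filter of 100. SPG3 changed by 3.03 (SE 0.58, edgeR adjusted p = 0.039), lost without either footprint library at 10 µM, footprint library 2 at 0 µM, either RNA library at 10 µM or RNA library 1 at 0 µM (log2 2.28 to 4.08 over the 8 omissions). These 3 genes had RNA at similar levels in both conditions, with overlapping libraries and RNA changes of 0.04, 0.18 and -0.22. PBI1 had more reads, with footprints of 81.8 and 46.0 CPM at 10 µM, against 3.42 and 4.13 CPM at 0 µM and an efficiency change of 3.09 (SE 0.44, edgeR adjusted p = 0.011), and lost its call without RNA library 2 at 10 µM (log2 2.63 to 3.46 over the 8 omissions).

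Enzymes of metabolism were also among the 15 largest rises. INO1, inositol-3-phosphate synthase, had footprints of 836 and 814 CPM at 10 µM, against 15.7 and 23.9 CPM at 0 µM, and RNA of 459 and 422 CPM at 10 µM, against 29.7 and 33.1 CPM at 0 µM. Its RNA change of 3.80 was exceeded by its footprint change of 5.36, so efficiency rose by 1.55 (SE 0.24, edgeR adjusted p = 0.016). The INO1 call was lost without footprint library 1 at 10 µM or RNA library 2 at 10 µM (log2 1.3 to 1.93 over the 8 omissions). BNA2, tryptophan 2,3-dioxygenase at the head of NAD synthesis from tryptophan, rose by 1.83 (SE 0.30, edgeR adjusted p = 0.020) with footprints of 29.4 and 36.0 CPM at 10 µM, against 5.84 and 8.11 CPM at 0 µM. DSD1, D-serine dehydratase, rose by 1.74 (SE 0.29, edgeR adjusted p = 0.022), and ADH5, an alcohol dehydrogenase, by 1.59 (SE 0.31, edgeR adjusted p = 0.039). AKR2, an ankyrin repeat protein related to the palmitoyltransferase Akr1, rose by 1.55 (SE 0.30, edgeR adjusted p = 0.040). BNA2 lost its call without footprint library 2 at 10 µM, footprint library 1 at 0 µM or either RNA library at 10 µM (log2 1.57 to 2.14 over the 8 omissions), and DSD1 without either footprint library at 10 µM, footprint library 2 at 0 µM or RNA library 2 at 10 µM (log2 1.5 to 2.02 over the 8 omissions). ADH5 lost it without footprint library 2 at 10 µM, footprint library 1 at 0 µM, either RNA library at 10 µM or RNA library 2 at 0 µM (log2 1.27 to 1.88 over the 8 omissions) and with limma voom, and AKR2 without either footprint library at 10 µM, either footprint library at 0 µM, RNA library 2 at 10 µM or either RNA library at 0 µM (log2 1.34 to 1.81 over the 8 omissions). BNA2 overlaps YJR079W on the same strand in the annotation, so part of its reads may belong to that entry.

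**Figure D4:**
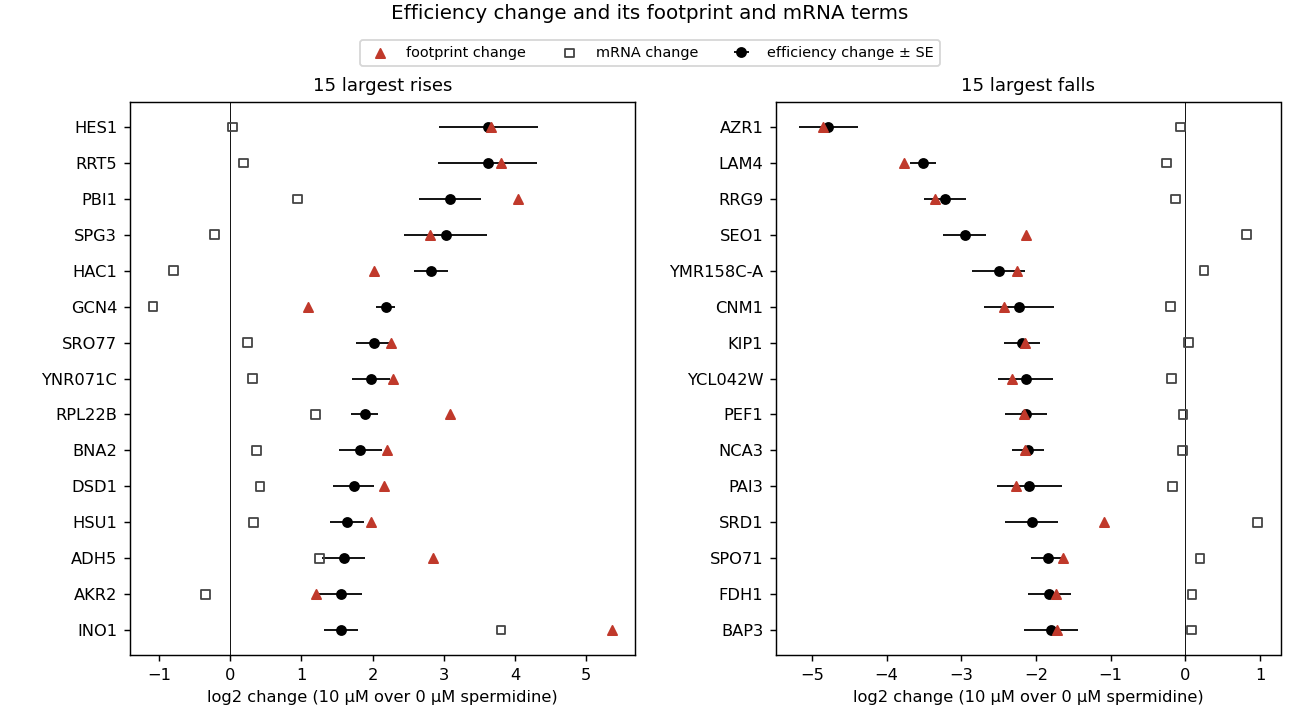
Efficiency change (black circles, with standard error bars) of the 30 genes with the largest called changes, 15 up and 15 down, at a mean count of 30 or more, on a log2 scale, with the footprint change (red triangles) and the RNA change (open squares) that make it up. In the falls the circles and triangles lie close together for AZR1, LAM4, RRG9, KIP1, PEF1 and NCA3, with squares near 0; SEO1 and SRD1 have squares to the right of 0.

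The falls were led by AZR1, LAM4 and RRG9. AZR1, which encodes a drug and acid exporter of the major facilitator superfamily (YGR224W; chromosome VII, 942806 to 944647), had footprints of 2.19 and 2.45 CPM at 10 µM, against 74.7 and 61.8 CPM at 0 µM. Its RNA was 8.88 and 7.18 CPM at 10 µM, against 8.61 and 8.20 CPM at 0 µM, a change of -0.06. Footprints thus differed without overlap while RNA differed by less than its spread, and efficiency changed by -4.78 (SE 0.39, edgeR adjusted p = 0.00060), a 27.5-fold fall. At 0 µM AZR1 had one of the highest ratios of the table, with 99.9% of genes below it, and at 10 µM 11.2% were below it. These AZR1 values rested on few reads, 7 and 10 in footprints at 10 µM and 14 to 24 per RNA library. LAM4, a sterol transfer protein of contacts between the endoplasmic reticulum and plasma membrane (YHR080C; chromosome VIII, 262801 to 266838), had footprints of 15.3 and 14.2 CPM at 10 µM, against 188 and 215 CPM at 0 µM, and RNA of 78.9 and 83.1 CPM at 10 µM, against 96.6 and 97 CPM at 0 µM. Its efficiency changed by -3.52 (SE 0.18, edgeR adjusted p = 2.0e-05), which is 11.4-fold and had the smallest p of the table. RRG9, needed to keep the mitochondrial genome (YNL213C; chromosome XIV, 246460 to 247104), had footprints of 8.77 and 7.83 CPM at 10 µM, against 79.8 and 88.7 CPM at 0 µM, and RNA of 16.2 and 16.9 CPM at 10 µM, against 20.7 and 15.7 CPM at 0 µM. Its efficiency fell by 3.22 on the log2 scale (SE 0.28, edgeR adjusted p = 0.00066).

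KIP1, PEF1, UBP13, VAC7 and RCO1 resembled RRG9 in having a high ratio at 0 µM and RNA changes close to 0, from -0.03 to 0.16. KIP1, a kinesin motor of the mitotic spindle, had footprints of 29.8 and 32.0 CPM at 10 µM, against 147 and 128 CPM at 0 µM, and RNA of 55.9 and 49.8 CPM at 10 µM, against 43.0 and 59.4 CPM at 0 µM. Its efficiency ratio was 0.585 at 10 µM, against 2.69 at 0 µM, a change of -2.19 (SE 0.24, edgeR adjusted p = 0.0021). UBP13, a ubiquitin-specific protease, had footprints of 57.0 and 65.8 CPM at 10 µM, against 182 and 201 CPM at 0 µM, and changed by -1.74 (SE 0.18, edgeR adjusted p = 0.0017). VAC7, a vacuolar membrane protein that promotes synthesis of a phosphoinositide lipid, changed by -1.61 (SE 0.20, edgeR adjusted p = 0.0058), and RCO1, a subunit of a histone deacetylase complex, by -1.35 (SE 0.15, edgeR adjusted p = 0.0026). PEF1, a calcium-binding protein, changed by -2.13 (SE 0.28, edgeR adjusted p = 0.0066), with its call lost without RNA library 2 at 10 µM (log2 -2.37 to -1.95 over the 8 omissions). At 0 µM the ratio of all 5 exceeded that of at least 98.1% of tested genes, and at 10 µM the percentiles ran from 24.7 to 81.6. VAC7 and RCO1 were named after their values were seen. RCO1 overlaps YMR075C-A on the opposite strand, and strand use in the counting is not given in the sources used here.

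NCA3, ZRG8, TBS1 and SEO1 also fell in every omission but had low ratios at 0 µM, with between 10.9% and 28.1% of genes below them. NCA3, a cell wall protein of the SUN family, had footprints of 12.2 and 11.5 CPM at 10 µM, against 52.6 and 52.8 CPM at 0 µM, and RNA of 82.5 and 104 CPM at 10 µM, against 89.2 and 103 CPM at 0 µM. Its ratio was 0.127 at 10 µM, against 0.548 at 0 µM, a change of -2.11 (SE 0.22, edgeR adjusted p = 0.0017). ZRG8 had footprints of 23.8 and 20.8 CPM at 10 µM, against 66.5 and 58.6 CPM at 0 µM. Its RNA was 217 and 228 CPM at 10 µM, against 208 and 205 CPM at 0 µM, and its efficiency changed by -1.60 (SE 0.17, edgeR adjusted p = 0.0018). TBS1, a zinc cluster protein, changed by -1.43 (SE 0.19, edgeR adjusted p = 0.0066). SPO71, a protein of the forming spore membrane with 92.4% of genes below it at 0 µM, changed by -1.83 (SE 0.23, edgeR adjusted p = 0.0058). ZRG8 and TBS1 lie outside the rule for named genes and were added after their values were seen. SEO1, a putative permease, had the largest RNA change, 0.82, of the 12 falls that held in every omission. SEO1 footprints were 3.45 and 3.43 CPM at 10 µM, against 16.1 and 14.5 CPM at 0 µM, its RNA 47.5 and 44.1 CPM at 10 µM, against 28.9 and 23.2 CPM at 0 µM, and its efficiency change -2.96 (SE 0.29, edgeR adjusted p = 0.0016).

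The remaining members of the 15 largest falls lost their call in at least 1 omission. YMR158C-A, a short entry of uncharacterised product, changed by -2.50 (SE 0.36, edgeR adjusted p = 0.011), lost without RNA library 2 at 10 µM (log2 -3.37 to -2.05 over the 8 omissions). FDH1, formate dehydrogenase, changed by -1.82 (SE 0.28, edgeR adjusted p = 0.016), lost without footprint library 1 at 10 µM or RNA library 2 at 10 µM (log2 -2.07 to -1.57 over the 8 omissions). PAI3, the cytosolic inhibitor of the vacuolar proteinase A, had a ratio of 4.06 at 10 µM, against 17.7 at 0 µM, from only 8 to 19 RNA reads per library, and changed by -2.09 (SE 0.43, edgeR adjusted p = 0.048), lost without either footprint library at 10 µM, either footprint library at 0 µM, either RNA library at 10 µM or RNA library 1 at 0 µM (log2 -2.49 to -1.76 over the 8 omissions) and with limma voom. SRD1 changed by -2.06 (SE 0.36, edgeR adjusted p = 0.025), lost without footprint library 1 at 10 µM, footprint library 2 at 0 µM, either RNA library at 10 µM or RNA library 1 at 0 µM (log2 -2.42 to -1.81 over the 8 omissions), with an RNA change of 0.97. BAP3, a branched-chain amino acid permease, changed by -1.80 (SE 0.36, edgeR adjusted p = 0.043) and CNM1 by -2.23 (SE 0.46, edgeR adjusted p = 0.048). Both lost their calls in all 8 omissions (log2 -2.29 to -1.36 and -2.92 to -1.84) and with limma voom. YCL042W changed by -2.14 (SE 0.36, edgeR adjusted p = 0.023), lost without either footprint library at 10 µM or either RNA library at 10 µM (log2 -2.43 to -1.84 over the 8 omissions). It overlaps the glucokinase gene GLK1 on the same strand in the annotation, so its own value is uncertain.

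In some called genes it was the RNA and not the footprints that differed most. PNS1, a membrane protein of the choline transporter-like family, had RNA of 70.0 and 75.4 CPM at 10 µM, against 239.8 and 201 CPM at 0 µM, whereas its footprints were 80.8 and 74.6 CPM at 10 µM, against 99.1 and 74.6 CPM at 0 µM. Its RNA was lower at 10 µM without overlap and its footprints differed by -0.16, so that efficiency rose by 1.44 (SE 0.22, edgeR adjusted p = 0.016), lost without footprint library 1 at 10 µM or either RNA library at 10 µM (log2 1.27 to 1.66 over the 8 omissions). BMS1, a GTPase of small subunit assembly, had an RNA change of -1.21 and a footprint change of -0.35, and its efficiency rose by 0.87 (SE 0.16, edgeR adjusted p = 0.036), lost without either footprint library at 10 µM, either footprint library at 0 µM or either RNA library at 10 µM (log2 0.77 to 0.97 over the 8 omissions). RRP12, an export factor of ribosomal subunits, had an RNA change of 0.60 and a footprint change of -0.13. Its efficiency change was -0.73 (SE 0.12, edgeR adjusted p = 0.023), lost without either footprint library at 10 µM, either footprint library at 0 µM or either RNA library at 10 µM (log2 -0.79 to -0.67 over the 8 omissions) and with the length trend removed. PNS1 and RRP12 were named after their values were seen.

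HOL1, the high-affinity polyamine transporter named in the study's title (YNR055C; chromosome XIV, 728426 to 730186), had footprints of 32.3 and 25.7 CPM at 10 µM, against 95.1 and 80.0 CPM at 0 µM. Its RNA was 51.2 and 54.9 CPM at 10 µM, against 97.4 and 101 CPM at 0 µM. Both were lower at 10 µM without overlap, footprints more so, and the efficiency difference of -0.70 (SE 0.21, edgeR adjusted p = 0.12) did not pass the test, with values of -0.86 to -0.53 over the 8 omissions. By p it ranked 354 among the 5488 genes. In the list of 14 genes for polyamine transport and its regulators, 1 rose in efficiency (7.14%, against 0.893% of all genes) and none fell. An unadjusted p below 0.05 was found for 5, beside 1015 of all 5488, and the list median was 0.12. The one that rose was SAM3, an S-adenosylmethionine permease that also takes up polyamines. SAM3 footprints were 187 and 187 CPM at 10 µM, against 161 and 157 CPM at 0 µM, its RNA 140.0 and 151 CPM at 10 µM, against 221 and 192 CPM at 0 µM, and its efficiency change 0.74 (SE 0.15, edgeR adjusted p = 0.048). That call was lost without either footprint library at 10 µM, either footprint library at 0 µM, either RNA library at 10 µM or RNA library 1 at 0 µM (log2 0.66 to 0.87 over the 8 omissions), and with DESeq2, relative log expression factors and library totals. TPO3, a polyamine exporter, differed by -0.81 and SKY1, a protein kinase that affects polyamine uptake, by -0.49, neither called (edgeR adjusted p = 0.10 and 0.17).

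None of the 11 genes for polyamine synthesis, breakdown and antizyme was called in efficiency by edgeR, DESeq2 or limma voom. Of these, 1 had an unadjusted p below 0.05, beside 1015 of all 5488, and the median was 0.01. OAZ1, the antizyme made through a frameshift that polyamines promote, had footprints of 33.2 and 32.0 CPM at 10 µM, against 22 and 18.8 CPM at 0 µM, and RNA of 39.7 and 45.1 CPM at 10 µM, against 19.2 and 32.1 CPM at 0 µM. Both assays were higher at 10 µM, by 0.69 and 0.71, and efficiency differed by -0.03 (SE 0.31, edgeR adjusted p = 0.98), a value whose sign turned in 3 of the 8 omissions. The table gives no means to tell OAZ1 footprints before the frameshift from those after it. FMS1, polyamine oxidase, differed by -1.16 with an SE of 0.55, its 4 footprint libraries at 161 and 67.5 CPM at 10 µM, against 123 and 188 CPM at 0 µM overlapping. SPE3, spermidine synthase, differed by 0.19, SPE4, spermine synthase, by -0.19, and PAA1, polyamine acetyltransferase, by 0.58 (edgeR adjusted p = 0.52, 0.81 and 0.099). The few reads on the deleted SPE1 and SPE2 gave -0.73 and 1.05 with SEs of 0.74 and 0.53. Of the marker genes, LEU2 differed by 0.39 and URA3, inactive here, by 0.44, neither called (edgeR adjusted p = 0.19 and 0.18). None of the 3 frameshift genes OAZ1, ABP140 and EST3 was called by edgeR, DESeq2 or limma voom, with 1 at an unadjusted p below 0.05 and a median of -0.03. ABP140, an actin-binding methyltransferase, differed by 0.43, and EST3, of telomerase, by -0.21.

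For eIF5A and its modifying enzymes, none of 4 genes was called by edgeR, DESeq2 or limma voom. Of these, 2 had an unadjusted p below 0.05, beside 1015 of all 5488, and the median was 0.35. HYP2, the main eIF5A gene, had footprints of 3015 and 2709.7 CPM at 10 µM, against 3091 and 2763 CPM at 0 µM, and RNA of 1552 and 1322 CPM at 10 µM, against 2325 and 1926 CPM at 0 µM. The footprint ranges overlapped while RNA was lower at 10 µM in both libraries, and the efficiency difference was 0.53 (SE 0.18, edgeR adjusted p = 0.16). ANB1, its near-identical paralogue, had 1 to 17 reads per library and an SE of 1.04, too few to place. DYS1 and LIA1, which make hypusine in succession, differed by 0.07 and 0.17. Among 22 actin assembly genes that include proline-rich proteins, a class whose translation leans on eIF5A, none was called by edgeR, DESeq2 or limma voom, 4 had an unadjusted p below 0.05 and the median was 0.01. BEM1, a polarity scaffold, differed by 0.75 and AIM3 by 0.54 (edgeR adjusted p = 0.097 and 0.17).

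Cytosolic ribosomal protein genes held the most calls of any list. Of 137 tested, 9 rose in efficiency (6.57%, against 0.893% of all genes) and none fell, with 11 higher with DESeq2 and 10 with limma voom. An unadjusted p below 0.05 in either direction was found for 62, beside 1015 of all 5488. The median efficiency change of the list was 0.33, beside a median footprint change of -0.35 and a median RNA change of -0.63. Besides RPL22B these were RPL12A, RPL12B, RPL1B, RPP2B, RPS9A, RPS9B, RPS27A and RPS25B. Of the 9, RPL22B alone kept its call in every omission. RPL12A, of the base of the stalk where elongation factors bind, had RNA of 281 and 251 CPM at 10 µM, against 552 and 505 CPM at 0 µM, and footprints of 395 and 409 CPM at 10 µM, against 394 and 426 CPM at 0 µM. RNA was lower at 10 µM without overlap and the footprint ranges overlapped, and the efficiency change was 0.96 (SE 0.15, edgeR adjusted p = 0.016). RPP2B, an acidic protein of the same stalk, changed by 1.23 (SE 0.22, edgeR adjusted p = 0.028), and RPL1B by 1.19 (SE 0.23, edgeR adjusted p = 0.039). RPS9A and RPS9B changed by 0.81 and 0.77, and RPS27A by 0.89 (edgeR adjusted p = 0.027, 0.034 and 0.029). The number of these genes that rose was 1 without RNA library 2 at 10 µM, 3 without RNA library 1 at 10 µM, 2 and 1 without footprint libraries 1 and 2 at 10 µM, 3 and 2 without footprint libraries 1 and 2 at 0 µM, 7 without RNA library 1 at 0 µM and 17 without RNA library 2 at 0 µM. The list median stayed between 0.28 and 0.42 in those fits. Most of these genes are duplicated with near-identical copies, so the division of reads within a pair is uncertain. With library totals RPS9B and RPS25B were not called. RPL12B, RPL1B, RPS9B, RPS27A and RPS25B fall outside the rule for named genes.

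Other translation genes had few or no calls. None of the 28 initiation factor genes was called by edgeR, DESeq2 or limma voom. Of these, 5 had an unadjusted p below 0.05, beside 1015 of all 5488, and the median was 0.18. HCR1, a subunit of eIF3, differed by 0.71 (edgeR adjusted p = 0.062). None of 13 elongation and release factor genes was called by the same 3 tools, 6 had an unadjusted p below 0.05 and the median was 0.20. EFB1, exchange factor of elongation factor 1, differed by 0.59, and SUP35, a release factor, by -0.57 (edgeR adjusted p = 0.082 and 0.10). None of the 15 genes for rescue of stalled ribosomes was called by any of these tools, 3 had an unadjusted p below 0.05 and the median was -0.10. RKR1, the ubiquitin ligase also called LTN1, differed by -0.46. Among 7 nascent chain chaperones edgeR and limma voom called none and DESeq2 called 1 higher, 2 had an unadjusted p below 0.05 and the median was 0.18, with EGD1, of the nascent polypeptide-associated complex, at 0.83 (edgeR adjusted p = 0.066).

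Of 96 listed ribosome biogenesis genes, edgeR called BMS1 alone, higher (1.04%, near the 0.893% of all genes). RRP12, described above as called lower, also acts on ribosomal subunits but was not in this list. Within the list DESeq2 called 1 higher and 1 lower and limma voom 1 higher. An unadjusted p below 0.05 was found for 20 of the 96, beside 1015 of all 5488. The median was -0.11, with values of -0.23 to 0.01 over the omissions. HAS1, a helicase of subunit assembly, differed by 0.77, and LSG1, a late GTPase of the large subunit, by -0.73 (edgeR adjusted p = 0.062 and 0.064). The median of this list stood below that of all genes, whereas that of the ribosomal proteins stood above it, and no test was made between them. Of 36 tRNA modification genes 1 fell (2.78%, against 0.893% of all genes), DUS3, a dihydrouridine synthase, by 0.89 in log2 units (edgeR adjusted p = 0.043). The DUS3 call was lost in all 8 omissions (log2 -1.0 to -0.77), with DESeq2 and with the length trend removed. The list median was -0.11. None of the 21 cytosolic and 14 mitochondrial aminoacyl-tRNA synthetase genes was called by edgeR, DESeq2 or limma voom, with 6 and 1 at an unadjusted p below 0.05 and medians of 0.09 and 0.05. The same 3 tools called none of 74 mitochondrial ribosomal protein genes, 16 had an unadjusted p below 0.05 and the median was 0.08, with MRP10 at 0.86 (edgeR adjusted p = 0.066). With library totals the median of the mitochondrial synthetases turned to -0.03, and that of the mitochondrial ribosomal proteins to -0.00107.

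Lists of metabolism mostly had medians above that of all genes with a single call or none. Other lists did so too, among them chaperones (0.23), oxidative stress defence (0.33) and histones (0.34). The class of genes with the highest mean counts had a median of 0.15. In glycolysis and fermentation 1 of 21 genes rose (4.76%, against 0.893% of all genes), GPM1, phosphoglycerate mutase, by 0.68 (SE 0.12, edgeR adjusted p = 0.028). GPM1 footprints were 6574 and 6726 CPM at 10 µM, against 4133 and 4171 CPM at 0 µM, and its RNA 3176 and 3060.4 CPM at 10 µM, against 3222 and 3024 CPM at 0 µM, so footprints differed without overlap and RNA overlapped. Its call was lost without either footprint library at 10 µM, either footprint library at 0 µM or either RNA library at 10 µM (log2 0.66 to 0.75 over the 8 omissions) and with library totals. In that list 13 genes had an unadjusted p below 0.05, beside 1015 of all 5488, limma voom called 3 higher and the median was 0.38. The number of glycolysis genes called higher was 0 and 0 without footprint libraries 1 and 2 at 10 µM, 0 and 0 without those at 0 µM, 0 and 0 without RNA libraries 1 and 2 at 10 µM, and 1 and 8 without those at 0 µM. ENO1 and ENO2, near-identical enolases, differed by 0.60 and 0.57 (edgeR adjusted p = 0.054 and 0.059). All 25 ergosterol genes had positive differences, beside 3039 of the 5488 tested, from 0.03 to 0.80, with a median of 0.31, but none was called by edgeR, DESeq2 or limma voom, and 9 had an unadjusted p below 0.05. The sign was likewise positive in all 13 fatty acid synthesis genes, all 10 histone genes and 20 of the 21 glycolysis genes. ERG3, a sterol desaturase, had a footprint change of 2.09 and an RNA change of 1.5, an efficiency difference of 0.59 (edgeR adjusted p = 0.084). In phospholipid synthesis INO1 was the 1 call among 24 genes (4.17%, against 0.893% of all genes), with a median of 0.23. In fatty acid synthesis edgeR and limma voom called none of 13 genes and DESeq2 called 1, 3 had an unadjusted p below 0.05 and the median was 0.22. OLE1, the fatty acid desaturase, differed by 0.79 (edgeR adjusted p = 0.064).

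Among 50 amino acid synthesis genes 1 rose (2%, against 0.893% of all genes), ARO2, chorismate synthase. ARO2 rose by 0.93 (SE 0.18, edgeR adjusted p = 0.040), with footprints of 634 and 746 CPM at 10 µM, against 351 and 396 CPM at 0 µM. The ARO2 call was lost without either footprint library at 10 µM, either footprint library at 0 µM, either RNA library at 10 µM or RNA library 2 at 0 µM (log2 0.80 to 1.06 over the 8 omissions). In that list 16 genes had an unadjusted p below 0.05, beside 1015 of all 5488. DESeq2 called 1 higher and limma voom 2, and the median was 0.23. In sulfur and methionine metabolism edgeR called none of 26 genes and DESeq2 and limma voom 1 each, 6 had an unadjusted p below 0.05 and the median was 0.18, with CYS3, cystathionine gamma-lyase, at 0.72 (edgeR adjusted p = 0.055). Of 41 respiratory chain and ATP synthase genes 1 fell by edgeR's test (2.44%, against 0.893% of all genes). It was SDH4, a membrane subunit of succinate dehydrogenase, with a change of -0.83 (SE 0.17, edgeR adjusted p = 0.048), lost without either footprint library at 10 µM, either footprint library at 0 µM, either RNA library at 10 µM or RNA library 1 at 0 µM (log2 -0.95 to -0.69 over the 8 omissions) and under the stricter count filter of 100. The median of that list was 0.23, beside 0.05 over all genes, and 36 of its genes had positive differences, beside 3039 of all 5488. DESeq2 called 1 gene of this list higher and 2 lower, and limma voom 1 lower. NDE2, an external NADH dehydrogenase, differed by -2.97 with 5 to 35 footprint reads per library and just missed the threshold (edgeR adjusted p = 0.057). None of 19 citric acid cycle genes was called by edgeR, DESeq2 or limma voom, 1 had an unadjusted p below 0.05 and the median was 0.14.

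Of 32 proteasome subunit genes 1 rose (3.125%, against 0.893% of all genes), and the list median was 0.24. It was PRE5, a core particle subunit, by 0.91 (SE 0.17, edgeR adjusted p = 0.036), lost without either footprint library at 10 µM, either footprint library at 0 µM, either RNA library at 10 µM or RNA library 1 at 0 µM (log2 0.81 to 1.02 over the 8 omissions). Of 26 transporters of amino acids and sugars BAP3 was the 1 call by edgeR (3.85% lower, against 0.893% of all genes). DESeq2 called 1 lower and limma voom none, with a median of 0.01. The list of 23 genes for translocation and glycosylation in the endoplasmic reticulum also held HAC1 and IRE1, which act in neither. HAC1 was its 1 call (4.35%, against 0.893% of all genes), and the list median was 0.16. No translocation or glycosylation gene of the list was called. The tools edgeR, DESeq2 and limma voom called none of 28 chaperone genes (median 0.23, 4 at an unadjusted p below 0.05), 10 histone genes (0.34, 5), 18 genes of stress and reserve carbohydrate (0.24, 5), 26 iron uptake genes (0.01, 7), 25 genes of oxidative stress defence (0.33, 9), 6 a-cell genes (-0.08, 2) and 3 alpha-cell genes (0.54, 0). In the cell wall list of 29 tested genes DESeq2 called 1 higher and the other tools none. Of these, 10 had an unadjusted p below 0.05, beside 1015 of all 5488, and the median was 0.19. PDI1, protein disulfide isomerase, differed by 0.50, and HTB2, a histone H2B gene, by 0.55 with an RNA change of -1.63 (edgeR adjusted p = 0.084 and 0.10). With library totals the medians for iron uptake, for amino acid and sugar transporters, for actin assembly and for polyamine synthesis were below 0, at -0.07, -0.08, -0.07 and -0.07.

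**Figure D5:**
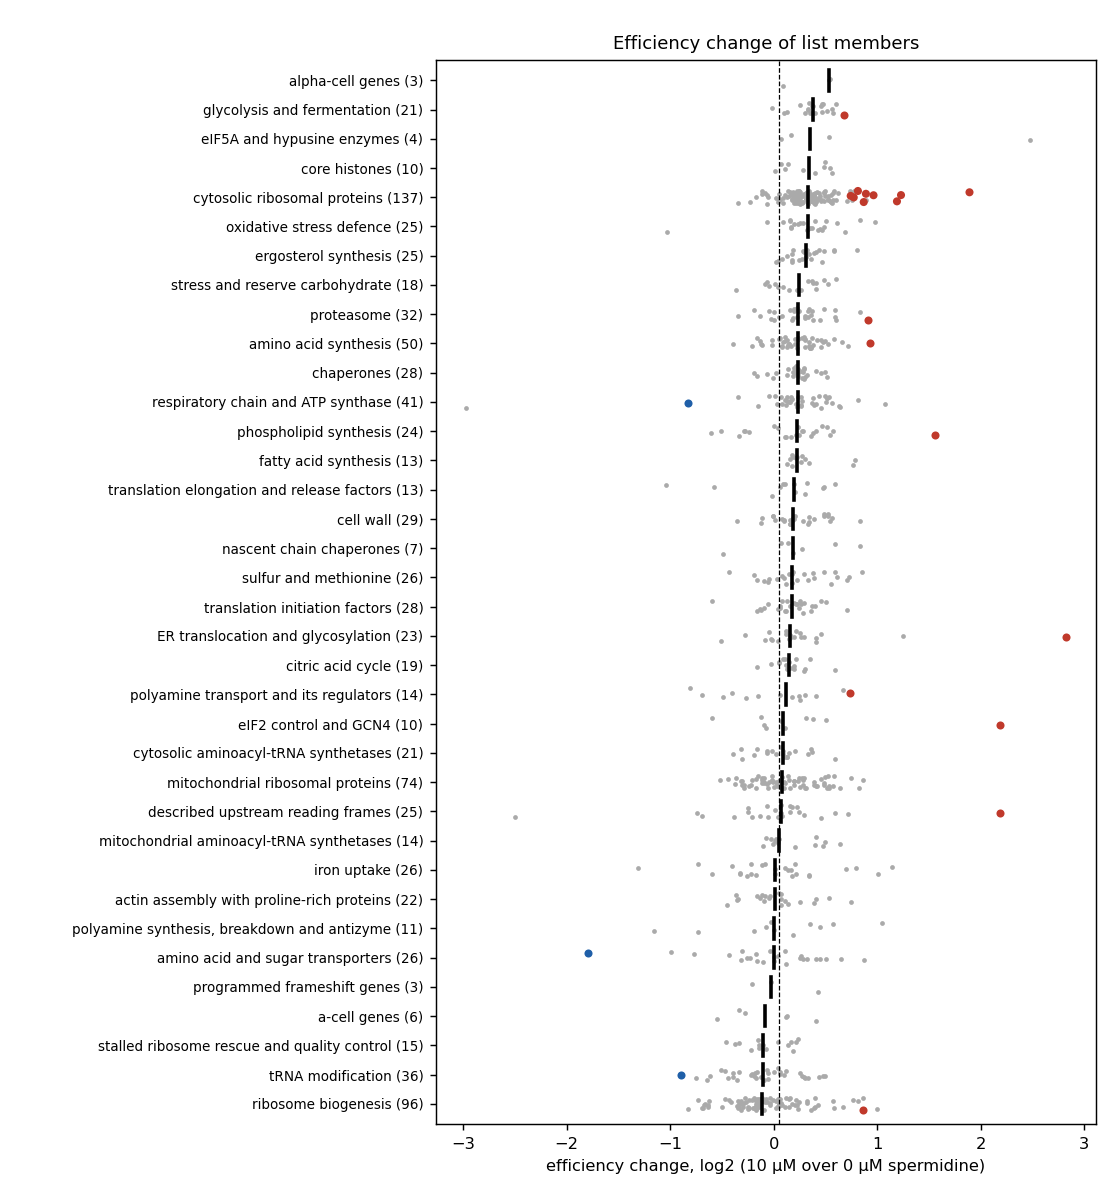
Efficiency change, as log2 of 10 over 0 µM, of the tested members of 36 gene lists, with the number tested in parentheses. Each point is a gene, red where called higher, blue where called lower and grey otherwise; black bars are list medians and the dashed line is the median of all 5488 genes, 0.05. The cytosolic ribosomal proteins hold 9 red points, more than any other of these lists.

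Median efficiency changes by class of gene length and abundance are given as a description, without a test. The annotated lengths are mostly coding lengths (96.8% are multiples of 3). In the shortest of 4 length classes, 78 to 786 bases, the median efficiency change was 0.14. Of its 1378 genes 17 were called higher (1.23%) and 8 lower (0.581%), against 0.893% of all genes in each direction. The next classes had medians of 0.11 and 0.04, with 14 of 1365 genes higher (1.03%) and 9 lower (0.659%), then 11 of 1376 in each direction (0.799%). In the longest class, 1926 to 14733 bases, the median was -0.09, with 7 of 1367 genes higher (0.512%) and 21 lower (1.54%). Over the omissions the median of the shortest class ran from 0.10 to 0.20 and that of the longest from -0.11 to -0.02. Genes called higher had a median length of 1029 bases and genes called lower one of 1812 bases, beside 1256 for all. Removal of the trend on length from each library evens out the length classes by construction. The 4 medians then lay between 0.03 and 0.07, and 88 of the 98 calls held. By mean count, also in 4 classes, the medians of the lower 3 were between -0.0023 and 0.02 and that of the most abundant class was 0.15. Of the 1372 genes in the most abundant class 23 were called higher (1.68%) and 8 lower (0.583%). Ribosomal protein genes are short and abundant, and how far these properties and the list's median go together was not tested.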

How the data were processed

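Libraries of ribosome footprints and of total RNA, at 10 and 0 µM added spermidine, were grouped by their titles. Per the labels' protocols, footprints were released with RNase I from filtered, freezer-milled cells and size-selected (17 to 34 nucleotides); total RNA was fragmented by heat for the RNA libraries. The deposited values are the authors' raw read counts for each gene. As tools, the submitters' processing notes list edgeR, cutadapt and Bowtie in versions 1.1.2 and 1.2.2, and as builds sacCer3 and R64. How reads were counted, whether strand was used and what was done with reads of several matches: not given in the sources used here. No count of 0 is in the table, so genes silent in some library may be missing from it, and 3 of its lines hold no gene. RefSeq's R64 gene table matched 5543 of 5545 IDs.

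Analysis used R 4.3.3 and edgeR 4.0.16: filterByExpr (minimum count 10, minimum total 15), trimmed-mean (TMM) composition factors for 8 libraries, and 1 quasi-likelihood model of 4 groups without a block. The fit was checked on counts simulated from this same model with independent libraries. That check cannot show whether the model holds for the real libraries. Changes are relative to the typical gene. Standard errors are the log2 change over the root of F. CPM uses composition-adjusted totals, and an efficiency ratio is mean footprint CPM over mean RNA CPM. Alternatives included DESeq2 1.42.0 and limma 3.58.1 voom.

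The members, the 36 gene lists and the tests were chosen with earlier results of these data known, and RPP1, KGD4, MRP8, RPN4 and RPN14, which are not subunits of the ribosome or proteasome they had been listed under, were taken out of 3 lists after the values were seen. Named genes are the 15 largest rises and falls among called genes with a mean count of at least 30, the 5 smallest p in each direction, 13 fixed genes and, for each list, the 4 members of smallest p; others are marked or, in the closing part, were chosen after their values were seen. A call lost in all or most omissions is given with its range, except in ribosomal protein genes, for which the number called in each omission is given.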

Additional observations from a re-analysis of the deposited data

How the results depend on the processing

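The 98 efficiency calls, 49 higher and 49 lower, became 295 (156 higher, 139 lower) with a replicate block within each assay, 181 (98 and 83) with a replicate block across both assays, and 175 (101 and 74) with that block and the length trend removed. All 98 were kept under both blocks alone. Deviations of same-numbered libraries correlated at 0.035 to 0.23 over the 6 pairs of groups, and with 2 numbers per group and no label for a shared day, the numbers are not taken as pairs. With library totals 37 rose and 83 fell (30.8% higher), and with DESeq2 54 rose and 83 fell (39.4% higher). Leaving out each library in turn gave 20 to 151 calls, 8 to 85 higher and 12 to 66 lower, and moved the number of genes called for footprint change to 1392 to 2218 (2113 with all libraries) and for mRNA change to 669 to 1080 (1203 with all). The cause was not tested. Values that turned sign all belonged to uncalled genes. Over the omissions of 1 library the efficiency log2 change of SPE1 ran from -1.28 to 0.17, SPE4 from -0.58 to 0.14, OAZ1 from -0.43 to 0.31, LIA1 from -0.025 to 0.36, MF(ALPHA)1 from -0.68 to 1.08 and STE3 from -0.18 to 0.42, and DYS1 was at -0.018 with library totals. The median over all genes lay between -0.03 and 0.08 over the scalings. Grouping genes by encoded sequence was planned but not run, since no sequence table was used here. With 2 libraries a group, a median SE of 0.22 and RNA libraries of at most 2884632 counts, changes under 0.64 on the log2 scale were not called.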

Other observations

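Several of the 98 called genes not described above act on RNA or transcription, and all of those in this part were chosen after their values were seen. MPE1, of the cleavage and polyadenylation factor, fell in efficiency by 1.51 on the log2 scale (SE 0.20, edgeR adjusted p = 0.0070), with footprints of 37.0 and 39.1 CPM at 10 µM, against 108 and 119.97 CPM at 0 µM, a call lost without RNA library 2 at 10 µM (log2 -1.63 to -1.35 over the 8 omissions). REF2, of the same machinery, changed by -1.3 (SE 0.25, edgeR adjusted p = 0.038), SEN1, a helicase of transcription termination, by -1.02 (SE 0.16, edgeR adjusted p = 0.016), and FCP1, the phosphatase of the RNA polymerase II tail, by -0.98 (SE 0.18, edgeR adjusted p = 0.034). REF2 lost its call without footprint library 1 at 10 µM, either footprint library at 0 µM, either RNA library at 10 µM or RNA library 1 at 0 µM (log2 -1.55 to -1.1 over the 8 omissions), SEN1 without either footprint library at 10 µM, footprint library 2 at 0 µM or RNA library 2 at 10 µM (log2 -1.13 to -0.86 over the 8 omissions) and with the length trend removed, and FCP1 without either footprint library at 10 µM, either footprint library at 0 µM, either RNA library at 10 µM or RNA library 2 at 0 µM (log2 -1.09 to -0.87 over the 8 omissions). BRR2, the spliceosomal helicase, had footprints of 106 and 117 CPM at 10 µM, against 217 and 228 CPM at 0 µM, and RNA of 503 and 601 CPM at 10 µM, against 486 and 535 CPM at 0 µM. Its footprints were lower at 10 µM and its RNA overlapped, and the efficiency change of -1.11 (SE 0.17, edgeR adjusted p = 0.016) was lost without footprint library 1 at 10 µM or RNA library 2 at 10 µM (log2 -1.23 to -0.98 over the 8 omissions). BCD1, needed for box C/D small nucleolar RNAs, changed by -1.60 (SE 0.30, edgeR adjusted p = 0.038), lost without footprint library 1 at 10 µM, either footprint library at 0 µM, either RNA library at 10 µM or either RNA library at 0 µM (log2 -1.84 to -1.42 over the 8 omissions). No list of such genes was fixed, so nothing is said of them as a group.

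Among further rises, NMA1, of NAD synthesis, changed by 1.14 (SE 0.18, edgeR adjusted p = 0.016), with footprints of 75.8 and 76.8 CPM at 10 µM, against 46.5 and 53.4 CPM at 0 µM, and lost its call without either footprint library at 10 µM or either RNA library at 10 µM (log2 1.05 to 1.27 over the 8 omissions). TOM6, a small subunit of the mitochondrial import pore, changed by 1.04 (SE 0.17, edgeR adjusted p = 0.022), lost without either footprint library at 10 µM, either footprint library at 0 µM or either RNA library at 10 µM (log2 0.96 to 1.17 over the 8 omissions). CSR1, a phosphatidylinositol transfer protein, changed by 1.0 (SE 0.16, edgeR adjusted p = 0.019), lost without either footprint library at 10 µM, footprint library 2 at 0 µM or RNA library 1 at 10 µM (log2 0.90 to 1.12 over the 8 omissions). SHR3, which packages amino acid permeases for export from the endoplasmic reticulum, changed by 0.94 (SE 0.19, edgeR adjusted p = 0.043), lost without either footprint library at 10 µM, either footprint library at 0 µM, either RNA library at 10 µM or RNA library 1 at 0 µM (log2 0.80 to 1.1 over the 8 omissions) and with library totals. URA10, the minor orotate phosphoribosyltransferase gene, changed by 2.33 (SE 0.46, edgeR adjusted p = 0.040) on 30 and 29 footprint reads at 10 µM, against 7 and 7 at 0 µM, lost without either footprint library at 10 µM, either footprint library at 0 µM, either RNA library at 10 µM or RNA library 2 at 0 µM (log2 2.09 to 2.55 over the 8 omissions), with DESeq2 and with limma voom. Among further falls, PRY3, a cell wall protein of a sterol-binding family, had footprints of 192 and 222 CPM at 10 µM, against 448 and 392.4 CPM at 0 µM, changed by -1.34 (SE 0.22, edgeR adjusted p = 0.021) and lost its call without either footprint library at 10 µM, footprint library 1 at 0 µM or RNA library 2 at 10 µM (log2 -1.56 to -1.07 over the 8 omissions). RAD9, the DNA damage checkpoint adaptor, changed by -0.89 (SE 0.16, edgeR adjusted p = 0.034), lost without either footprint library at 10 µM, footprint library 1 at 0 µM or either RNA library at 10 µM (log2 -1.0 to -0.74 over the 8 omissions) and with the length trend removed.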
